A study of Mus musculus with 22 samples.

Results

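Lung metastases of PGC-1alpha-carrying and control mammary cells were compared in mice that had all received phenformin, the setting in which both lines met the same drug. The comparison took in 11 of the 22 arrays, chosen by their sample names: 6 arrays of metastases from NMuMG-ErbB2/PGC-1alpha cells and 5 of metastases from NMuMG-ErbB2/VC cells, the vector control. NMuMG is a mouse mammary gland epithelial line, and both derivatives carried ErbB2, the receptor tyrosine kinase. Cells were injected into the tail vein, the mice were given phenformin for 1 week, and metastases in the lung were cut out by laser capture before 10 ng of RNA was labelled. The other 11 arrays, 6 of the PGC-1alpha line and 5 of the control line, came from mice given PBS in place of the drug. They entered the fit only to estimate the spread and to set the difference under PBS beside that under phenformin.

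PGC-1alpha is a transcriptional coactivator, encoded by Ppargc1a. It acts with nuclear receptors such as the oestrogen-related receptors and with NRF1 and GABPA, and is best known for raising the genes of mitochondrial respiration. Phenformin is a biguanide that inhibits complex I, the entry point of the mitochondrial respiratory chain. Each genotype was represented by 1 injected line, so the coactivator and any other difference between the lines cannot be told apart. The labels used here give neither the strain, age or number of the mice nor whether arrays came from separate animals, and the p-values therefore measure only the spread between these samples.

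Values were log2 signals on short probes, so that a difference of 1 is a 2-fold difference in signal, and the number of arrays limits their precision. Of 19505 genes on the array, 15545 were bright enough to be tested. A gene is called higher or lower in what follows where its adjusted p was under 0.05, by limma's moderated test with Benjamini-Hochberg adjustment over all 15545 genes. Signals are levels of 1 probe set and were not compared between genes. Array medians ran from 6.61 to 6.64 in the PGC-1alpha group and from 6.55 to 6.60 in the control group, so they did not overlap. Captured tissue gave high signals of epithelium and of lung in both groups. Krt8 is not specific to tumour cells, so the tumour share of the captures was not measured. Krt8, a keratin of simple epithelium, lay between 12.17 and 12.45, and Sftpc, surfactant protein C of alveolar type 2 cells, between 13.22 and 13.67 over the 11 arrays. Control array 3 stood apart for heart muscle: Myl7, the atrial myosin light chain, read 10.17 there and 5.19 to 6.56 on the other 10, and Myh6, a cardiac myosin heavy chain, read 9.03 against 5.08 to 5.77. Without that array 2988 genes passed.

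The introduced genes themselves were weak markers of the lines here. Ppargc1a ran from 7.65 through a median of 8.53 to 9.83 in the PGC-1alpha arrays. In the control arrays it read 7.99, 7.97, 7.58, 8.67 and 8.02. The groups overlapped, with PGC-1alpha array 6 below 4 of the 5 controls. Their difference of 0.59 (SE 0.31) did not pass (limma adjusted p = 0.166), whereas the difference of 1.36 under PBS did (limma adjusted p = 0.0198). Erbb2 ran from 7.87 through 8.29 to 8.91 in the PGC-1alpha arrays and stood at 8.04, 7.78, 7.90, 7.79 and 8.02 in the controls, a difference of 0.41 (SE 0.15, limma adjusted p = 0.0526). The files do not say whether these probe sets detect the introduced sequences, so neither gene checks the labels firmly. Among the partners, Sirt1, a deacetylase of PGC-1alpha, fell by 0.69 (SE 0.16, limma adjusted p = 0.00670), from 9.31 to 9.94 in the controls to 8.54 to 9.18 in the PGC-1alpha arrays, without overlap. Nrf1 differed by -0.33 and did not pass. Of 22 tested coactivators and nuclear partners 1 rose and 3 fell.

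The line difference was broad and mostly small. Of the tested genes 21.1% passed, 10.0% higher and 11.1% lower in the PGC-1alpha metastases, which is 1560 and 1723 genes. Every count of list members in this report is to be read beside these shares. The median size of a passing difference was 0.52, and the median SE over all genes was 0.15. Only 11 of the genes that rose exceeded 2-fold, against 124 of those that fell. In 943 genes every PGC-1alpha array lay above every control array (6.07% of those tested) and in 768 every one lay below (4.94%). Dim and bright genes leaned opposite ways: of the 3109 brightest genes by mean signal 3.12% rose and 16.0% fell, and of the 3109 dimmest 12.3% rose and 2.57% fell. The split of the calls moved with scaling, to 1112 higher and 2203 lower when each array was centred on its median, 1337 and 1096 after another quantile normalisation, and 1037 and 1305 after cyclic loess. The median difference over all genes was 0.00 as deposited and -0.05, 0.02 and -0.01 under those scalings.

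**Figure D1:**
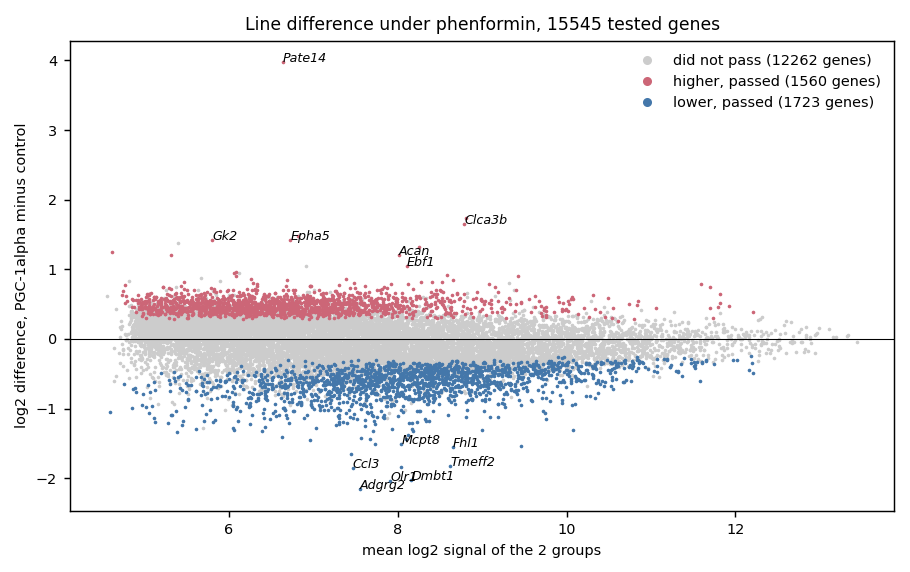
Difference between the lines under phenformin (PGC-1alpha minus control, log2) against the mean log2 signal of both groups, 1 point per tested gene, with the 1560 higher and 1723 lower genes coloured. Dim genes that passed lie mostly above 0 and bright ones mostly below, and Pate14 stands alone at 3.98.

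The largest rise lay in the Pate cluster, a group of neighbouring genes for small secreted or membrane-anchored proteins of the reproductive tract. Pate14 ran from 8.26 through a median of 8.68 to 8.92 in the PGC-1alpha arrays. Control arrays stood at 3.74, 4.37, 4.94, 7.09 and 3.10. The PGC-1alpha values formed a narrow band, while control array 4 lay more than 2 units above the other controls and still below every PGC-1alpha array. The difference was 3.98 (SE 0.42, limma adjusted p = 2.49e-05) and 4.59 without control array 4. Because the controls lay around the negative control probes, the rise is given as at least 10.1-fold. Pate8 rose by 1.25 (SE 0.20, limma adjusted p = 0.000858), from 3.60 to 4.47 in the controls to 4.82 to 5.67 in the PGC-1alpha arrays, at least 1.32-fold. No control array under phenformin put Pate8 over its 25th percentile, the level required for testing. Its entry to the test therefore rested on other arrays, and its call is not separate support for a rise of the cluster. The third tested member of the cluster did not pass, and 8 of the 11 members on the array were too dim to test. The Pate14 promoter is printed because no other gene separated the lines as far. It is RefSeq sequence of build GRCm38.p6, chr9:36638553-36638852, minus strand, from 250 bases before the gene's start to 50 after it.

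Pate14: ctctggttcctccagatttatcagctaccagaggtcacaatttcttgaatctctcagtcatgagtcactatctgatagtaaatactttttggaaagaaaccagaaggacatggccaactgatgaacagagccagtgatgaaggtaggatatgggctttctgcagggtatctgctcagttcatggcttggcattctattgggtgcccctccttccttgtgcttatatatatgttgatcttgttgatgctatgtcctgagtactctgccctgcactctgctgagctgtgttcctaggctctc

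None of the 3 motifs searched in promoters, which are named with the mitochondrial genes, has its letters in this window.

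**Figure D2:**
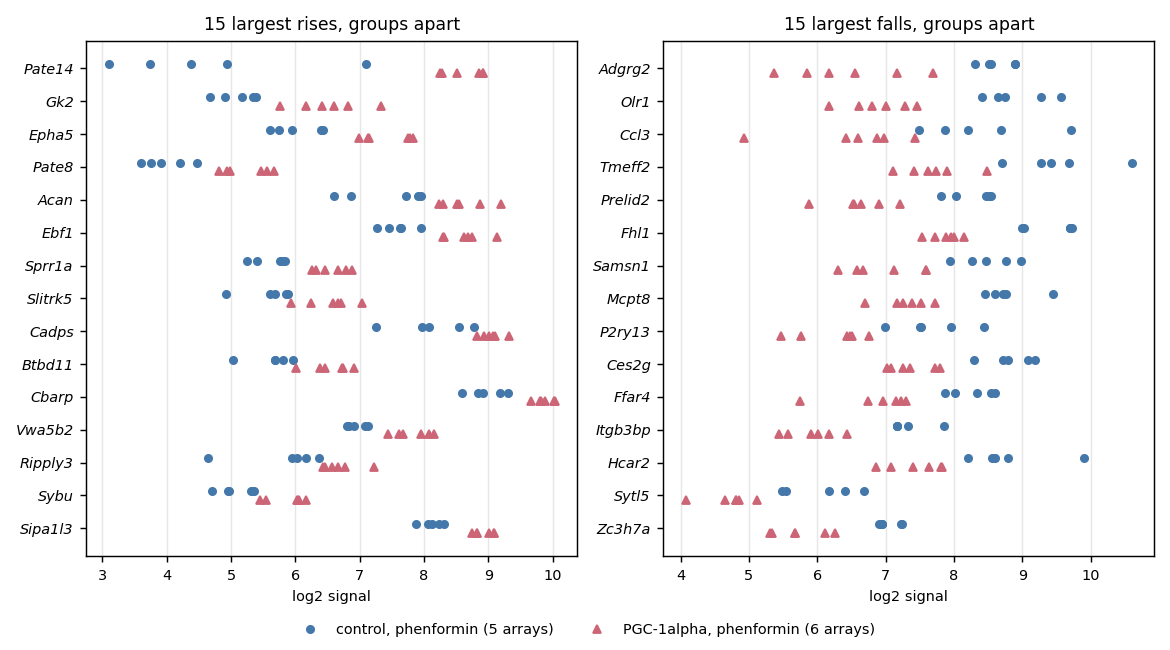
Log2 signal of every phenformin array for the 15 largest rises (left) and 15 largest falls (right) among genes that passed and whose groups did not overlap. Triangles are the 6 PGC-1alpha arrays and circles the 5 control arrays, and control array 4 is the single Pate14 circle at 7.09.

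Other large rises were genes of cell surface signalling, matrix and regulated secretion. Epha5, an Eph receptor tyrosine kinase, ran from 7.0 through 7.45 to 7.83 in the PGC-1alpha arrays and stood at 5.94, 6.43, 5.74, 6.39 and 5.60 in the controls. The rise of 1.42 (SE 0.18, limma adjusted p = 0.00028) left the groups apart. Acan, which encodes the cartilage proteoglycan aggrecan, ran from 8.24 through 8.53 to 9.19 against 6.86, 6.61, 7.72, 7.90 and 7.96. Its difference was 1.20 (SE 0.23, limma adjusted p = 0.00238). Gk2, a glycerol kinase known from testis, rose by 1.42, and Sprr1a, a precursor of the cornified envelope of keratinocytes, by 0.95. Both kept their groups apart, with Sprr1a at 6.26 to 6.87 against 5.24 to 5.84.

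Genes of the dense-core granule and of vesicle transport were another group with rises. Of 16 tested members of that list 5 were higher and none lower, beside 10.0% higher over all tested genes, and the list's median difference was 0.35. After another quantile normalisation or cyclic loess 3 were higher, with medians of 0.26 and 0.22. Cadps, which primes dense-core vesicles for release, ran from 8.83 through 9.04 to 9.33 in the PGC-1alpha arrays and stood at 7.25, 8.54, 7.97, 8.78 and 8.07 in the controls. It rose by 0.92 (SE 0.22, limma adjusted p = 0.00813). Rab3a, a small GTPase of secretory vesicles, rose by 0.47, and its control array 4, at 6.51, lay below the other 4 at 6.92 to 7.03. Outside the list, Sybu, which links cargo vesicles to a kinesin motor, rose by 0.82, and Cbarp, a regulator of voltage-gated calcium channels, by 0.90. Cbarp read 9.66 to 10.04 in the PGC-1alpha arrays against 8.59 to 9.31. Slitrk5, a neuronal transmembrane protein, rose by 0.94 and read 5.93 to 7.03 against 4.92 to 5.88.

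Changes in other families were partial. In the Clca family, regulators of calcium-activated chloride conductance, 4 of 5 tested members rose, with a median of 0.70. Clca3b ran from 8.69 through 9.48 to 10.82 in the PGC-1alpha arrays against 8.99, 6.85, 7.65, 8.60 and 7.73, so the groups overlapped. Its rise of 1.65 (SE 0.35) passed (limma adjusted p = 0.00388). The family's count fell to 1 under cyclic loess, and its members may share probe sequence. Among ErbB receptors and ligands, 2 of 12 rose and 1 fell: the ligand Nrg2 rose by 0.67 and the ligand Ereg fell by 0.63. Ereg stood at 7.38 to 7.91 in the controls and at 6.38 to 7.21 in the PGC-1alpha arrays. Of 20 immediate early genes 4 rose and 1 fell. Fosl1, a Fos-family subunit of AP-1, rose by 0.58 and read 8.44 to 8.78 against 7.88 to 8.17, while Ier2 fell by 0.39. Of 26 collagens and proteoglycans 4 rose and none fell, among them Col16a1 by 0.40.

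The largest falls were in genes of several unlike roles, among them genes of myeloid cells that are given further below. Adgrg2, an adhesion G protein-coupled receptor known from the epididymis, ran from 5.37 through 6.36 to 7.70 in the PGC-1alpha arrays. It stood at 8.30, 8.90, 8.89, 8.51 and 8.54 in the controls. It fell by 2.16 (SE 0.32, limma adjusted p = 0.00057), with the PGC-1alpha arrays more spread out than the controls. Tmeff2, a membrane protein with an EGF-like domain, fell by 1.83, from 8.71 to 10.61 in the controls to 7.11 to 8.48. Fhl1, a LIM-domain protein of muscle, fell by 1.55 (7.54 to 8.15 against 8.99 to 9.72). Ffar4, a receptor for long-chain fatty acids, fell by 1.42, and its PGC-1alpha array 1, at 5.75, lay below the other 5 at 6.75 to 7.29. Itgb3bp, a centromere protein, fell by 1.41 (5.44 to 6.44 against 7.16 to 7.86). Ces2g, a carboxylesterase, fell by 1.44. Sytl5, a partner of Rab27 in granule transport, fell by 1.34, which is at least 2.33-fold.

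Genes of secretory epithelium moved both ways. Of 20 tested members of that list 2 rose and 4 fell, beside 10.0% higher and 11.1% lower over all genes. The list had no common lean, with a median of 0.00 and 10 members above 0 and 10 below. Its mean level per array was 7.20 to 8.59 in the PGC-1alpha arrays and 7.39 to 7.90 in the controls. The 4 falls are named below and the 2 rises are not. Dmbt1, a secreted mucosal glycoprotein, ran from 5.64 through 7.07 to 9.24 in the PGC-1alpha arrays against 10.25, 8.74, 8.72, 9.34 and 8.82, and fell by 2.03 (SE 0.55, limma adjusted p = 0.0146). A GABA receptor subunit found in epithelium, Gabrp, fell by 1.54 (8.15 to 9.69 against 9.58 to 10.84), and Cldn8, a tight junction claudin, fell by 1.29. Aqp5, a water channel of secretory glands and of alveolar type 1 cells, fell by 0.82 and read 8.02 to 8.50 against 8.79 to 9.45. The captured metastases also gave lung signals, and the cells behind these values were not tested. In bulk samples fewer cells of a type and less RNA per cell cannot be told apart.

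Mitochondrial genes, the best known targets of PGC-1alpha, had more falls than rises in the PGC-1alpha metastases under phenformin. Of 35 tested complex I subunits 1 rose and 10 fell, with a median of -0.21, beside 10.0% higher and 11.1% lower over all genes. Their mean level of 9.88 lies in the range of the brightest genes, of which 3.12% rose and 16.0% fell. Ndufb5, an accessory subunit, ran from 9.56 through 9.80 to 10.10 in the PGC-1alpha arrays and stood at 10.31, 10.53, 10.30, 10.61 and 10.35 in the controls. It fell by 0.59 (SE 0.12, limma adjusted p = 0.00347), with no overlap between the groups. Ndufb3 fell by 0.53, Ndufa9 by 0.64, Ndufa2 by 0.48 and Ndufb11 by 0.34, all without overlap. The assembly factor Ndufaf5, a hydroxylase of a complex I subunit, fell by 0.79 (5.15 to 6.11 against 6.30 to 6.66). Ndufs1, the iron-sulphur subunit of the electron input module, fell by 0.54 under phenformin and differed by 0.39 the other way under PBS, where it did not pass. That change between treatments did not pass either (interaction -0.93, SE 0.19, limma adjusted p = 0.173).

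Other oxidative phosphorylation complexes were uneven. In complex II, 1 of 8 tested subunits and assembly factors rose and 3 fell. Sdhb, the iron-sulphur subunit, ran from 9.45 through 9.53 to 9.80 in the PGC-1alpha arrays against 10.02, 10.58, 9.83, 10.32 and 9.98, and fell by 0.56 (SE 0.14, limma adjusted p = 0.00914). The membrane anchor Sdhd fell by 0.53 (7.94 to 8.40 against 8.52 to 8.74). Complex III had 1 fall among 10 and complex IV 1 among 15, close to the share over all genes. Of 18 ATP synthase subunits 5 fell and none rose. After another quantile normalisation 3 fell and 1 rose, and after cyclic loess 2 fell and 1 rose. Atp5o, the stalk subunit that confers oligomycin sensitivity, fell by 0.60 and read 9.99 to 10.46 against 10.74 to 10.97.

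Mitochondrial gene expression and import held further falls. Mrpl13, a protein of the large mitochondrial ribosomal subunit, ran from 7.26 through 7.87 to 7.94 in the PGC-1alpha arrays and stood at 8.64, 8.69, 8.80, 8.85 and 8.90 in the controls. It fell by 1.03 (SE 0.14, limma adjusted p = 0.00028), which left a gap between the groups. Of 48 tested large-subunit proteins 1 rose and 13 fell (median -0.25), beside 10.0% higher and 11.1% lower over all genes. Of 30 small-subunit proteins none rose and 3 fell (median -0.25), close to the share that fell over all genes. After another quantile normalisation the counts were 2 and 3 for the large subunit and 2 and 6 for complex I, with medians of -0.12 for both. Of 23 genes of mitochondrial DNA expression and replication 7 fell and none rose. Tfb2m, a transcription factor of the mitochondrial genome, fell by 1.11, Polg2, the accessory subunit of the mitochondrial DNA polymerase, fell by 0.64, and the RNA-binding proteins Fastkd2 (-0.80) and Lrpprc (-0.62) also fell. Tfam, which packages mitochondrial DNA, fell by 0.70 (limma adjusted p = 0.0193) and differed by -0.56 without control array 3, where it did not pass (limma adjusted p = 0.0546).

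Mitochondrial import held changes in both directions. Timm21, a subunit of the inner-membrane translocase, ran from 6.62 through 6.89 to 7.39 against 8.41, 7.69, 8.23, 7.82 and 8.33. It fell by 1.15 (SE 0.16, limma adjusted p = 0.00028), and no PGC-1alpha array reached a control array. The outer-membrane receptors Tomm22 and Tomm70a fell by 0.52 and 0.62. Timm9, a chaperone of the intermembrane space, rose by 0.55 (7.06 to 7.48 against 6.46 to 7.06), and Timm50, a receptor of the inner membrane, rose by 0.45. In all 3 of 33 import genes rose and 5 fell, beside 10.0% higher and 11.1% lower over all genes. Of 33 mitochondrial carriers of family 25, 2 rose and 2 fell: Slc25a29, a carrier of basic amino acids, rose by 0.66, and Slc25a46, an outer-membrane protein of mitochondrial dynamics, fell by 0.62.

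**Figure D3:**
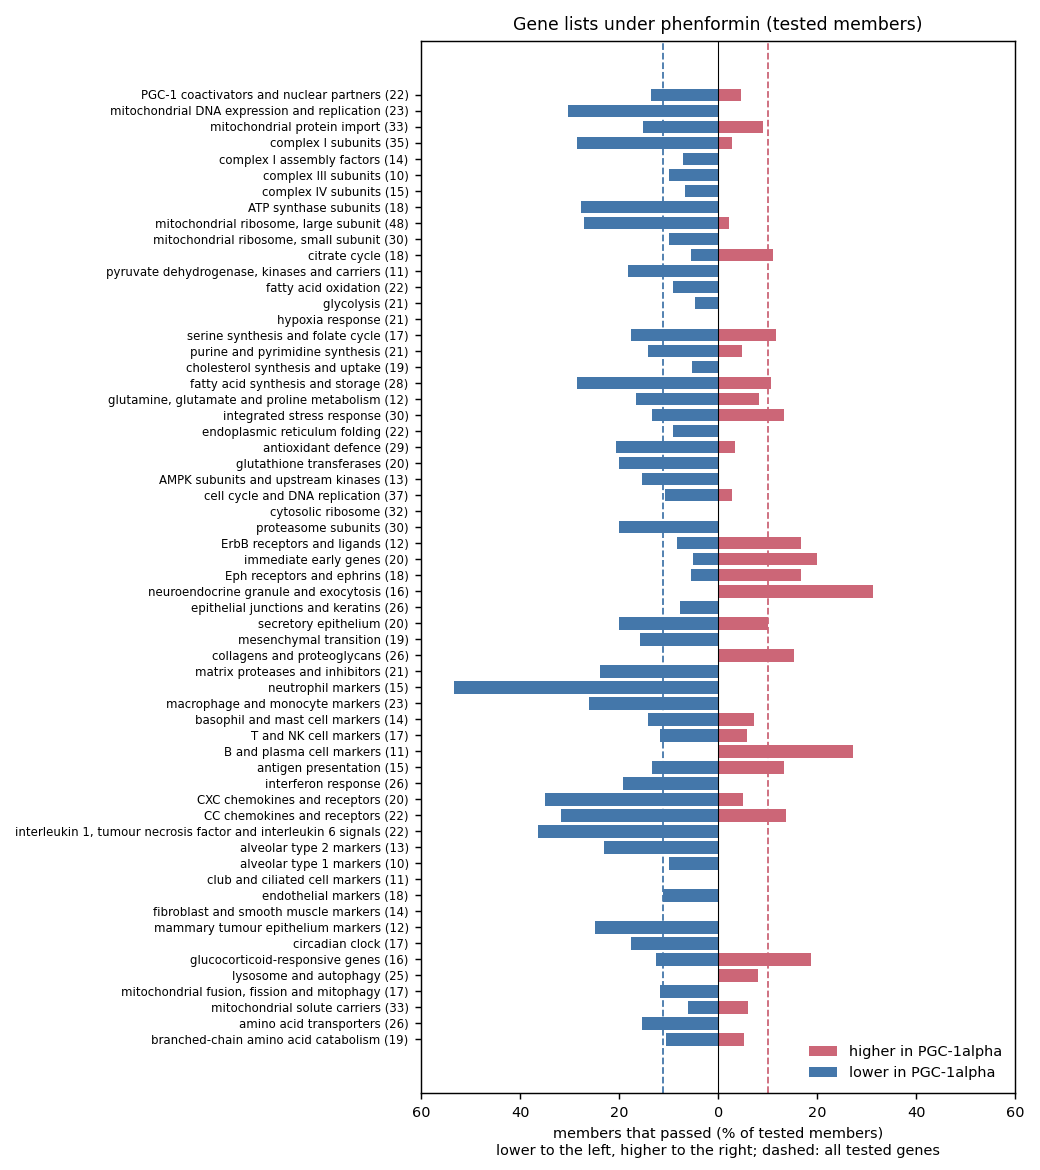
Share of the tested members of each gene list that passed under phenformin, lower in PGC-1alpha to the left and higher to the right, for lists with at least 10 tested members (number in brackets). Dashed lines mark 11.1% lower and 10.0% higher over all tested genes; neutrophil markers reach furthest to the left and genes of neuroendocrine granules furthest to the right.

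Promoters were searched for motifs of the partner factors, because PGC-1alpha acts through proteins bound to DNA. RefSeq promoters were matched by symbol for 12507 of the tested genes, and both strands were searched for CCGGAAGT (GABPA), TCAAGGTCA (oestrogen-related receptors) and the NRF1 motif. The GABPA letters occurred in 10.1% of the 1405 matched genes that fell, in 2.77% of the 1227 that rose and in 7.11% of all those tested. Bright genes carried them more often than dim ones, 9.86% of the matched genes among the 3109 brightest and 2.75% of those among the 3109 dimmest. For genes of brightness between these the shares were 10.9% of genes that fell, 3.07% of genes that rose and 7.61% of all. Among the brightest the share was lower in genes that fell, 8.82% of 408, than in all, 9.86%. NRF1 letters occurred in 3.35%, 1.47% and 2.61% of falling, rising and tested genes, beside 3.83% of the brightest and 1.13% of the dimmest. For genes of brightness between these the NRF1 shares were 3.42% of genes that fell, 1.77% of genes that rose and 2.67% of all. The receptor letters occurred in 0.214%, 0.489% and 0.344% of falling, rising and tested genes, which is only 3, 6 and 43 genes. Over all 27025 promoters the shares were 4.31% for GABPA, 1.41% for NRF1 and 0.466% for the receptor letters. A match is letters only and was not tested as a binding site. Promoters of Mrpl3, Tomm70a and Sdhd, genes that fell, are shown with their motif in capitals, read 5′ to 3′ on the gene's strand in build GRCm38.p6. Mrpl3 (chr9:105053018-105053317, plus strand) holds the GABPA letters starting 19 bases before its start, Tomm70a (chr16:57121464-57121763, plus strand) 80 bases before, and Sdhd (chr9:50603800-50604099, minus strand) holds the receptor letters on the opposite strand, 36 bases after its start, and an NRF1 match upstream.

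Mrpl3: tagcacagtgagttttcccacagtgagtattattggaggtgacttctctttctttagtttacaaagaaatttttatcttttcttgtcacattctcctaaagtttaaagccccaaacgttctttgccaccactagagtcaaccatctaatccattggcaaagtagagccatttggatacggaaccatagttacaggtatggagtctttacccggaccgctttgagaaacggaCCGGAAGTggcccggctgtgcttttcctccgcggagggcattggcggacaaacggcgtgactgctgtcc

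Tomm70a: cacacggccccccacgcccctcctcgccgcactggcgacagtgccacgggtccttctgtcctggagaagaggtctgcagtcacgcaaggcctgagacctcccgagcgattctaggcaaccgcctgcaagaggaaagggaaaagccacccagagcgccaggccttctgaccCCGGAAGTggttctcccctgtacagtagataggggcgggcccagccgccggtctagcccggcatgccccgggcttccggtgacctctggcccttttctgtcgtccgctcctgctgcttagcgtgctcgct

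Sdhd: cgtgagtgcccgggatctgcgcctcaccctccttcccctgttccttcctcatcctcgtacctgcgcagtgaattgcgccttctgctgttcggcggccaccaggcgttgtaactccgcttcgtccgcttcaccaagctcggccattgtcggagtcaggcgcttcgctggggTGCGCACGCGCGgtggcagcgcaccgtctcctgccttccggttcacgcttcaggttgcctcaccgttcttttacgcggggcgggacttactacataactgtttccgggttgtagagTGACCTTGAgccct

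Mrpl3, of the large mitochondrial ribosomal subunit, read 7.67 to 8.09 in the PGC-1alpha arrays against 8.27 to 8.62 and fell by 0.54 (SE 0.14, limma adjusted p = 0.00916). Under PBS its difference was 0.03.

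Central carbon metabolism gave few calls. In the citrate cycle 2 of 18 tested genes rose and 1 fell. The rising pair, Suclg2 and Sucla2, encode the GTP-forming and ATP-forming beta subunits of succinyl-CoA ligase. Suclg2 ran from 7.39 through 7.56 to 7.83 in the PGC-1alpha arrays against 6.72, 7.03, 6.98, 7.33 and 7.25, and rose by 0.52 (SE 0.13, limma adjusted p = 0.0103). Sucla2 rose by 0.56, with 6.02 to 6.44 against 5.30 to 5.98. Dld, the dehydrogenase shared by the pyruvate and oxoglutarate complexes, fell by 0.62, as did Pdhx, the binding protein of the pyruvate complex (0.54), and its inhibitory kinase Pdk3 (0.68). Hadhb, of the trifunctional protein of fatty acid oxidation, fell by 0.64 and was 1 of 2 falls among 22 oxidation genes. In glycolysis 1 of 21 genes passed and in the hypoxia list 0 of 21 by limma (2 at an unadjusted p under 0.05), beside 21.1% of all genes.

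One-carbon, nucleotide and amino acid genes moved singly. Psat1, the aminotransferase of serine synthesis, ran from 7.52 through 7.95 to 8.30 in the PGC-1alpha arrays against 8.49, 8.67, 8.81, 9.22 and 8.78. It fell by 0.86 (SE 0.16, limma adjusted p = 0.00181). Under PBS its difference was 0.24, and the change between treatments was -1.10 (SE 0.23, limma adjusted p = 0.173). The 17 tested genes of serine synthesis and the folate cycle held 2 rises and 3 falls. Dhodh, the pyrimidine enzyme that feeds electrons to ubiquinone, rose by 0.63 (6.91 to 7.60 against 6.51 to 6.73), whereas Umps, the next enzyme of that pathway, fell by 0.83 (6.41 to 7.16 against 7.13 to 8.01). Arg2, the mitochondrial arginase, fell by 1.09 and Prodh, proline dehydrogenase, rose by 0.43. Slc38a9, a lysosomal arginine sensor, fell by 1.25 (6.48 to 7.63 against 7.39 to 8.68) and differed by -0.07 under PBS. Its change between treatments did not pass (limma adjusted p = 0.370).

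Lipid handling held changes in both directions. Of 28 tested genes of fatty acid synthesis and storage 3 rose and 8 fell, beside 10.0% higher and 11.1% lower over all genes. The list's median difference was 0.01, with 15 members above 0 and 13 below, and 5 fell after another quantile normalisation or cyclic loess. Apob, the structural protein of lipoproteins, ran from 6.97 through 7.56 to 7.66 in the PGC-1alpha arrays against 8.84, 8.89, 8.03, 8.72 and 8.30, and fell by 1.11 (SE 0.25, limma adjusted p = 0.00531). Fabp4, a fatty acid carrier of adipocytes and macrophages, fell by 1.31 (7.72 to 9.29 against 9.10 to 10.14). Dgat1 and Agpat2, which acylate glycerolipids, fell by 0.76 and 0.68. Acacb, the mitochondrial acetyl-CoA carboxylase, rose by 0.50 and read 7.62 to 7.97 against 7.12 to 7.34. Angptl4, an inhibitor of lipoprotein lipase, rose by 0.57 with overlap.

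Stress, redox and growth lists held few calls or calls in both directions. The 30 tested genes of the integrated stress response held 4 rises and 4 falls; Cebpb, a transcription factor of that response and of inflammation, rose by 0.51 (6.69 to 7.11 against 6.20 to 6.49). Of 29 antioxidant genes 1 rose and 6 fell, beside 10.0% higher and 11.1% lower over all genes. After another quantile normalisation or cyclic loess 2 rose and 2 fell. Sod3, the extracellular superoxide dismutase, fell by 1.27 (5.05 to 5.71 against 5.64 to 7.39) and the cytosolic Sod1 by 0.31. None of 32 cytosolic ribosomal proteins and none of 5 tested biguanide transporters passed by limma, beside 21.1% of all genes. At an unadjusted p under 0.05 they held 1 and 2 genes, beside 37.1% of all genes. Of 30 proteasome subunits 6 fell, including Psmd12 by 0.55 and Psmb7 by 0.48. After another quantile normalisation or cyclic loess 3 of the subunits fell and 1 rose. Among 37 cell cycle genes 1 rose and 4 fell, Mcm4 of the replicative helicase by 0.55. The clock genes Arntl, Rora and Nfil3 fell by 0.87, 0.94 and 0.68, the 3 calls among 17. Fkbp5, a glucocorticoid-induced chaperone, fell by 0.78 (7.13 to 7.56 against 7.74 to 8.44) and differed by 0.00 under PBS. Its change between treatments did not pass (limma adjusted p = 0.305).

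Markers of myeloid cells fell in part, and none of the neutrophil or macrophage markers rose. Of 15 tested neutrophil markers 8 fell and none rose, beside 11.1% lower over all genes, and their mean level per array was 6.83 to 7.03 in the PGC-1alpha arrays and 7.28 to 7.63 in the controls. Clec4d, a C-type lectin receptor of myeloid cells, ran from 6.66 through 7.25 to 7.84 against 8.30, 8.57, 8.96, 8.35 and 8.69. It fell by 1.29 (SE 0.20, limma adjusted p = 0.000657). S100a8, a calprotectin subunit, fell by 1.04 (7.97 to 9.11 against 9.31 to 9.78), and Cxcr2, the neutrophil chemokine receptor, by 0.93 (7.08 to 7.81 against 7.88 to 8.81). Il1r2, the decoy receptor for interleukin 1, fell by 0.78 and Trem1, an activating receptor, fell by 1.16. On the log2 scale no marker has a zero, and 4 of the 19 neutrophil markers on the array were too dim to test.

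Monocyte and basophil genes also held falls. Olr1, the receptor for oxidised lipoprotein, ran from 6.17 through 6.91 to 7.46 in the PGC-1alpha arrays and stood at 9.28, 9.57, 8.41, 8.65 and 8.75 in the controls. It fell by 2.04 (SE 0.29, limma adjusted p = 0.000377), beside a difference of -0.70 under PBS. The change between treatments did not pass (interaction -1.34, limma adjusted p = 0.311). P2ry13, an ADP receptor of microglia and macrophages, fell by 1.45, Ccr2, the monocyte receptor for Ccl2-family chemokines, fell by 0.95 and the scavenger receptor Msr1 fell by 0.86. Of 23 macrophage and monocyte markers 6 fell and none rose, beside 11.1% lower and 10.0% higher over all genes. Their mean levels were 7.68 to 8.22 against 8.18 to 8.67. The general macrophage receptor Csf1r overlapped fully (9.02 to 9.82 against 9.14 to 9.70). Mcpt8, a basophil protease, ran from 6.70 through 7.32 to 7.72 against 8.72, 8.61, 8.76, 8.45 and 9.44 and fell by 1.51 (SE 0.19, limma adjusted p = 0.000213). It was 1 of 2 falls among 14 basophil and mast cell markers, which also held 1 rise, near the shares over all genes. Samsn1, an adaptor of blood cells, fell by 1.51 and Hcar2, the niacin receptor, fell by 1.38.

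Lymphocyte markers had rises as well as falls. Of 17 T and NK cell markers 1 rose and 2 fell, which is near the shares of 10.0% higher and 11.1% lower over all genes. Of 11 B and plasma cell markers 3 rose and none fell. Ebf1, a transcription factor of B cells and of stromal cells, ran from 8.29 through 8.65 to 9.13 in the PGC-1alpha arrays against 7.45, 7.96, 7.63, 7.64 and 7.27. It rose by 1.04 (SE 0.18, limma adjusted p = 0.00135). Ms4a1, the B cell surface protein CD20, read only 5.20 to 5.56 against 4.77 to 5.17. The next genes are chemokine receptors from outside these lymphocyte lists. Their own lists held more falls than rises: 3 of 22 CC genes rose and 7 fell, and 1 of 20 CXC genes rose and 7 fell. Ccr7, a homing receptor of lymphocytes and dendritic cells, rose by 0.55 (8.60 to 8.91 against 8.07 to 8.38). Cxcr3, a receptor of activated T cells, rose by 0.52 (6.74 to 7.02 against 6.18 to 6.57).

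Signals between immune cells had falls as well. Of 22 genes of interleukin 1, tumour necrosis factor and interleukin 6 signalling 8 fell and none rose, with a median of -0.42. Over all genes 10.0% were higher and 11.1% lower, the shares to set beside each count in this paragraph. Il1a, an alarmin of epithelium and myeloid cells, ran from 7.11 through 7.95 to 8.17 in the PGC-1alpha arrays against 8.67 to 9.05 in the controls, without overlap. The gene fell by 1.18 (SE 0.23, limma adjusted p = 0.00228). Il18 fell by 1.21, Il1f9, an interleukin 36 cytokine, fell by 1.20, the receptor chain Il1rap fell by 1.18 and the antagonist Il1rn fell by 0.80, all without overlap. Agonists and the antagonist moved the same way. Of 22 CC chemokines and receptors 3 rose and 7 fell. Ccl3 ran from 4.92 through 6.74 to 7.43 against 8.69, 7.88, 8.20, 7.49 and 9.71, and fell by 1.86 (SE 0.40, limma adjusted p = 0.0046). Ccl7, which attracts monocytes, fell by 0.83, and Ccl28, a mucosal chemokine of epithelium, rose by 0.50 (6.63 to 7.22 against 6.30 to 6.52). Among 20 CXC chemokines and receptors 1 rose and 7 fell, with Cxcl5, a neutrophil attractant, lower by 0.88 and Pf4, platelet factor 4, by 0.89. Interferon-response genes held 5 falls and no rise among 26, among them Oasl2, which fell by 0.75.

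Immune marker levels moved with the line. A score of 80 immune marker genes, as the mean of their centred log2 levels, ran from -0.19 to 0.01 in the PGC-1alpha arrays and from 0.00 to 0.35 in the controls. With that score as a covariate 19 genes passed, 5 higher and 14 lower. Of the 3283 genes that passed without it 3276 kept their sign, their estimates stood at a median of 0.890 times the first ones, and the median SE rose to 0.23. Pate14, Epha5, Sprr1a, Mcpt8, Hcar2, Il1r2, Cxcr2 and Il1f9 were among those that still passed. Of these, Mcpt8, Il1r2 and Cxcr2 are themselves part of the score, so their fits beside it are circular. A score of 52 lung marker genes overlapped between the groups (-0.43 to 0.22 against -0.27 to 0.45), and 2557 genes passed beside it. Which cells the calls come from was not tested.

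Lung and stromal markers gave few calls. Of 13 alveolar type 2 markers 3 fell and none rose, beside 11.1% lower and 10.0% higher over all genes. Their mean levels were 10.19 to 10.71 against 10.47 to 10.87. Lamp3, a lysosomal protein of type 2 cells and of dendritic cells, fell by 0.85 (9.14 to 10.51 against 10.58 to 11.01), and Napsa, the aspartic protease that processes surfactant protein, by 0.69. None of 11 club and ciliated cell markers and none of 14 fibroblast and smooth muscle markers passed by limma, and 0 and 1 of them had an unadjusted p under 0.05. Of 18 endothelial markers 2 fell, which is the 11.1% that fell over all genes. Eng, a co-receptor for TGF-beta and 1 of these, fell by 1.22 (6.41 to 7.93 against 7.46 to 9.11). Msln, a mesothelial and carcinoma surface protein, rose by 0.52 and read 9.41 to 9.75 against 8.82 to 9.37. Of 12 markers of the mammary tumour epithelium 3 fell and none rose as deposited, but after another quantile normalisation 1 rose and none fell.

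Calls were not spread evenly over chromosomes. On chromosome 16 the share of tested genes that fell was 24.5% (120 of 490) and on chromosome 18 it was 20.3% (73 of 360), beside 11.1% overall. The lean was graded: chromosome 13 had 100 of 588 genes lower (17.0%) and 27 higher (4.59%). On the X 17.0% fell and on chromosome 12 14.7%. Chromosome 16 medians were -0.16 under phenformin and -0.14 under PBS, and for chromosome 18 they were -0.17 and -0.07. Falls on these 2 included Samsn1, Tomm70a, Il1rap, Zc3h7a, a zinc-finger protein (5.31 to 6.27 against 6.90 to 7.25), Umps and Atp5o on chromosome 16, and Prelid2 and Timm21 on chromosome 18. Prelid2, of a family of mitochondrial lipid carriers, fell by 1.66, from 7.82 to 8.54 in the controls to 5.88 to 7.22. Chromosome 16 also held genes that rose, such as Vwa5b2 by 0.86 (7.43 to 8.15 against 6.81 to 7.13) and Ripply3, a corepressor of T-box factors, also by 0.86. On chromosome 7 the lean was opposite, with 165 of 1273 genes higher and 78 lower, the latter 6.13%. Copy number of the lines was not measured here.

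**Figure D4:**
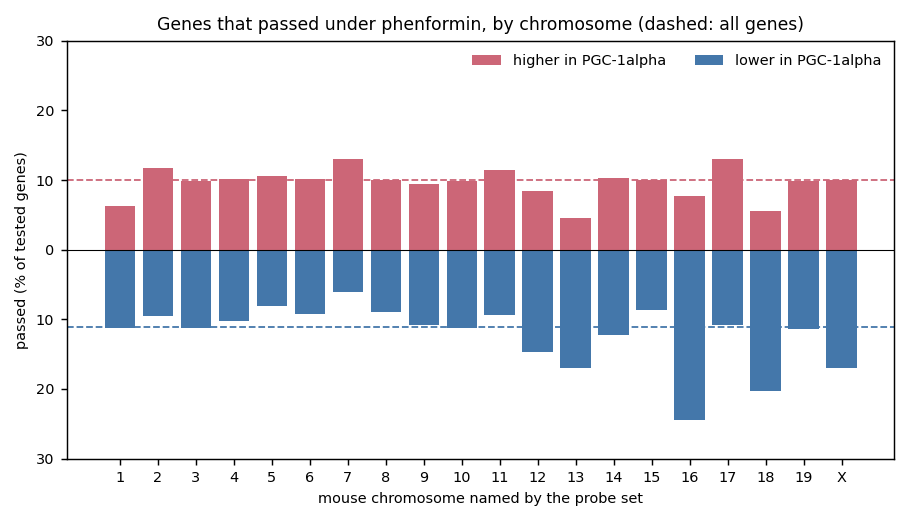
Share of tested genes on each mouse chromosome that were higher (up) or lower (down) in PGC-1alpha metastases under phenformin, with dashed lines at 10.0% and 11.1% for all tested genes. Chromosomes 16 and 18 have the longest downward bars, 24.5% and 20.3%.

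Under PBS the same lines differed in fewer genes. There 2.93% of tested genes passed, 188 higher (1.21%) and 267 lower (1.72%), and in 3.26% the groups did not overlap. By size, the median absolute difference over all genes was 0.16 against 0.25 under phenformin. The comparisons share no arrays, but they share the fit's estimate of the spread of each gene, so passing in both is not independent. The share of same signs over all tested genes is not given here. Of the 3283 genes that passed under phenformin 2820 had the same sign under PBS, and 80 higher and 195 lower genes passed in both. Pate14 (5.33 under PBS), Epha5 (1.73), Acan (1.75), Gk2 (1.58), Tmeff2 (-2.05), Fhl1 (-1.59), Apob (-1.75) and Gabrp (-2.17) differed at least as far without the drug. Cebpb (0.06), Dhodh (0.13), Slc25a29 (0.11), Ripply3 (-0.06) and Tomm70a (-0.10) lay near 0 there. A direct test of the change between treatments passed for 0 genes by limma, with a smallest adjusted p of 0.173, while 1724 (11.1%) had an unadjusted p under 0.05. No gene's line difference is therefore called larger or smaller under phenformin than under PBS.

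**Figure D5:**
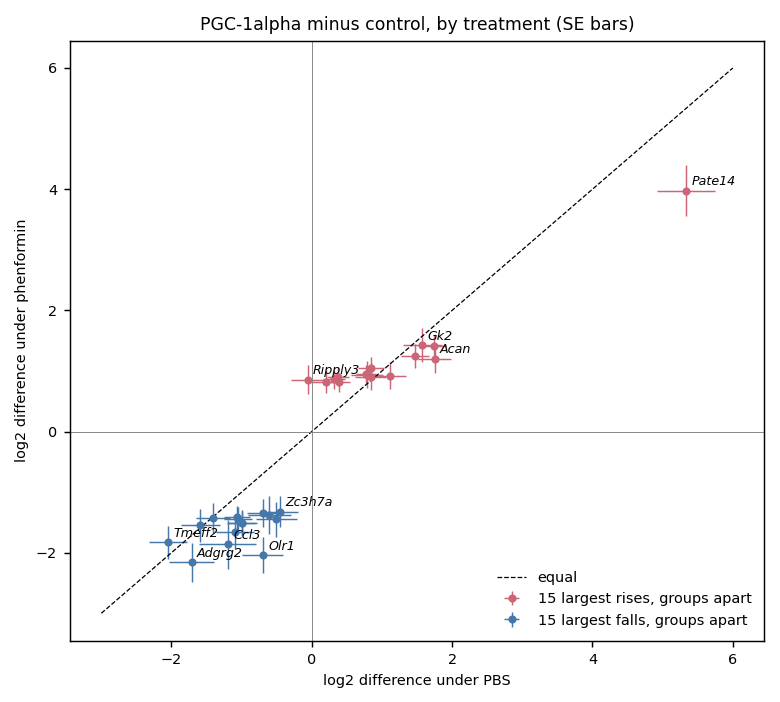
Line difference (PGC-1alpha minus control, log2) under phenformin against that under PBS for the 15 largest rises and 15 largest falls of genes that passed under phenformin with groups apart, with SE bars from the fit. Points near the dashed line differ alike in both settings; Olr1 lies below it, at -2.04 against -0.70, and Ripply3 above it, at 0.86 against -0.06.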

How the data were processed

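The deposited values are log2 array signals, 1 per probe set and array, which the authors had made with the oligo software, per the submitters' processing notes; its version, background correction and normalisation are not given in the sources used here. Another table with 22 value columns was left out: the columns are headed by numbers alone and could not be tied to samples. Of 28815 probe sets 6609 were controls. Symbols came from the platform annotation: 1 symbol was given for 19572 of the other probe sets, several for 0 and none for 2634. The probe set with the highest mean over the 22 arrays stood for each of 19505 genes, 55 of which had several. Genes entered the test when 5 or more arrays put them over that array's 25th percentile.

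A limma fit over all 4 groups (version 3.58.1, R 4.3.3) left 18 residual degrees of freedom for two-sided moderated tests, after the procedure was tested on simulated data. SE comes from that fit. Where a group lay below its arrays' median negative control, a fold is a lower bound with values raised to that median. Named genes were the 15 largest rises and falls with groups apart, plus members of 66 gene lists (1281 of 1393 genes matched); list members were named mainly where the call held under the alternatives, a choice made after their values were seen. Lists share 60 genes. Members and lists were chosen with earlier results of these data known. Replicate numbers were not taken as pairs, since same-numbered arrays did not deviate together (correlations of -0.08 to 0.16). Alternatives changed the scaling, the filter, the probe set rule, the variance model, array weights, a replicate block, tissue scores as covariates and single arrays. Promoters are RefSeq sequence (GRCm38.p6) of 300 bases, searched with Python 3.11.15; figures were drawn with matplotlib 3.10.9.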

Additional observations from a re-analysis of the deposited data

Results flagged for a closer look

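A value is named here if it lay far from the other arrays of its group by Dixon's test, which chance alone does in about 1 in 20 groups of values; 248 groups were examined and 10 values stood out. Control array 3 read 9.03 for Myh6 and 10.17 for Myl7, both of heart muscle, where the other controls reached 5.49 and 5.85. Control array 4 was highest for Itgb3bp (7.86) and Krt8 (12.45) and lowest for Rab3a (6.51) and Ripply3 (4.64). Control array 2 was highest for Arntl (9.01) and Dhodh (6.73). PGC-1alpha array 3 was lowest for Ereg (6.38) and PGC-1alpha array 1 for Ffar4 (5.75). Of these, each tested gene named as higher or lower kept its call when the array was left out.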

How the results depend on the processing

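The direction of the line difference under phenformin did not reverse for any named gene under any alternative that tested it. Of the 115 named genes that passed, 114 still passed wherever they were tested under the 33 alternatives other than the immune score covariates, but the filter at the 95th percentile of the negative controls tested only 73 of them. The exception was Tfam, lost without control array 3. List members were named mainly where their call held, so these counts do not measure how calls held over all genes. Of all 3283 passing genes, 2001 still passed after another quantile normalisation and 1934 after cyclic loess. Without PGC-1alpha array 2 under phenformin, 2134 of them did. Beside the immune score 8 of the named genes still passed, and beside a score lacking Olr1, P2ry13, Mcpt8 and Ebf1, an alternative chosen after seeing the data, 24 did. Both counts include Il1r2 and Cxcr2, which are part of both scores. Over all genes, the count of 3283 became 19 (5 higher, 14 lower) with the immune score, 115 (37 higher, 78 lower) with the reduced score, and 1539 with a filter at the 95th percentile of the negative controls, which left 5757 genes to test and 305 of them higher. Higher genes numbered 1037 after cyclic loess and lower genes 1096 after another quantile normalisation. Leaving out single arrays gave 2189 to 3617 passing genes, 1031 to 1756 higher and 1158 to 1861 lower, and the lowest number of higher genes came without PGC-1alpha array 2. For the change between treatments, the count of 0 became 1 with the strict filter and 0 to 2 when single arrays were left out (2 without PGC-1alpha array 3 under phenformin, 1 without control array 2 under PBS). With the replicate number as a block 3218 genes passed, 1517 higher and 1701 lower, although the numbers do not pair the arrays. Erbb2, which did not pass, did so under 8 alternatives, with differences of 0.41 to 0.54. Signals near the negative controls limit what dim genes can show, and the causes of these shifts were not tested.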
